A study of Drosophila melanogaster with 10 samples.

Results

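Small RNAs bound to Argonaute proteins were compared between Armitage-depleted and control ovarian somatic cells (OSCs), a Drosophila melanogaster cell line derived from the somatic cells of the ovary. The comparison was defined by its samples and covered 6 of the 10 libraries of the series: 3 libraries of cells transfected with an siRNA against armitage (siArmi) and 3 of cells transfected with an siRNA against luciferase (siLuc), a gene that OSCs do not carry. All 6 were of the wildtype OSC genotype, were transfected at 0 and 48 h and were harvested at 96 h. The other 4 libraries, from an experiment with flamenco silencing, served only in an alternative fit. Each library gave a coverage value for every position and strand of 122 transposon consensus sequences, 610009 positions in all, and the consensus sequences were 564 to 13424 nt long. Element names that look like numbers are set in quotation marks. The values are the number of small RNAs of 24 to 35 nt over a position, per 1000000 miRNA reads of the library, and the coverage of an element is the mean over its positions.

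Piwi-interacting RNAs (piRNAs) guide Piwi-clade Argonautes to transposon transcripts by base pairing, so that antisense piRNAs are those that can recognise a transposon mRNA. OSCs hold a single nuclear Piwi protein and lack the ping-pong cycle that amplifies piRNAs in germ cells. Their piRNAs are cut from long single-stranded precursors, above all from the flamenco locus, in which many endogenous retroviruses lie in antisense orientation. Armitage (Armi) is an RNA helicase that carries precursors to the processing sites at the surface of mitochondria, where the endonuclease Zucchini cuts them into phased piRNAs. Depletion of Armi therefore asks which small RNAs over transposons depend on this processing step. The messenger RNA of armi was not measured in these libraries, so the strength of the depletion was not checked here.

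The smallest step between values placed the depth at 1411915, 1297626 and 1799370 miRNA reads in the siLuc libraries and at 586560, 875165 and 725180 in the siArmi libraries. A siArmi value therefore rests on fewer reads than a siLuc value of the same size. siLuc replicate 3 had the lowest total coverage of its group on both strands. The labels number the replicates without saying that they are separate cultures, so the p-values measure the spread between these libraries.

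Depletion of Armi left less than 5% of the transposon-derived small RNAs on either strand. Summed over all elements, antisense coverage was 681.1, 668.7 and 486.6 per nt in the siLuc libraries and 32.3, 28.7 and 28.4 in the siArmi libraries. Sense coverage was 63.6, 61.1 and 46.0 per nt in siLuc and 2.42, 2.45 and 2.50 in siArmi. The groups did not come near each other on either strand, and the 3 siArmi libraries differed little. The residual, that is, the siArmi mean as a percentage of the siLuc mean, was 4.87% ± 0.54 (SE, n = 3 libraries per group) for antisense and 4.32% ± 0.42 for sense coverage. Each difference had an exact two-sided permutation p of 0.1, the smallest value that 3 against 3 libraries allow. Fewer cells with piRNAs and fewer piRNAs per cell cannot be told apart in these bulk lysates, and all levels are relative to the miRNAs of the same library.

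No tested element was spared on the antisense strand. All 50 elements whose antisense coverage averaged 10 or more were lower in siArmi (limma, Benjamini-Hochberg threshold of 0.05), which is 100% of those tested, and 0 (0%) were higher. On the sense strand all 29 tested elements were lower, again 100%, and 0 were higher (0%). The median log2 change was -4.30 for the antisense and -4.13 for the sense strand. Without a minimum of coverage, 120 of 121 elements on the antisense and 119 of 121 on the sense strand were lower. A scaling to the total transposon signal takes this common loss out by construction, and it left 23 elements lower and 9 higher on the antisense strand.

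The element with the most antisense piRNAs was '412', an LTR retrotransposon of the gypsy superfamily without an env gene. Its antisense coverage was 8799, 8692 and 6411 in siLuc and 495, 431 and 406 in siArmi, a residual of 5.57% ± 0.64. For gtwin, an env-bearing endogenous retrovirus, coverage fell from 6408, 6114 and 4536 to 337, 319 and 328, a residual of 5.77% ± 0.60. What was left of '412' and gtwin after depletion was still more than many other elements had in control cells, as the antisense coverage of mdg3 in siLuc, 135, 130 and 98.4, shows. mdg1, a relative of '412', went from 5142, 5043 and 3723 to 253, 219 and 210, a residual of 4.91% ± 0.56. For gypsy, the founding member of the env-bearing retroviruses of Drosophila, coverage was 3083, 2947 and 2151 in siLuc and 78.2, 76.7 and 79.2 in siArmi. Its residual of 2.86% ± 0.31 was the lowest of the 50 elements.

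**Figure D1:**
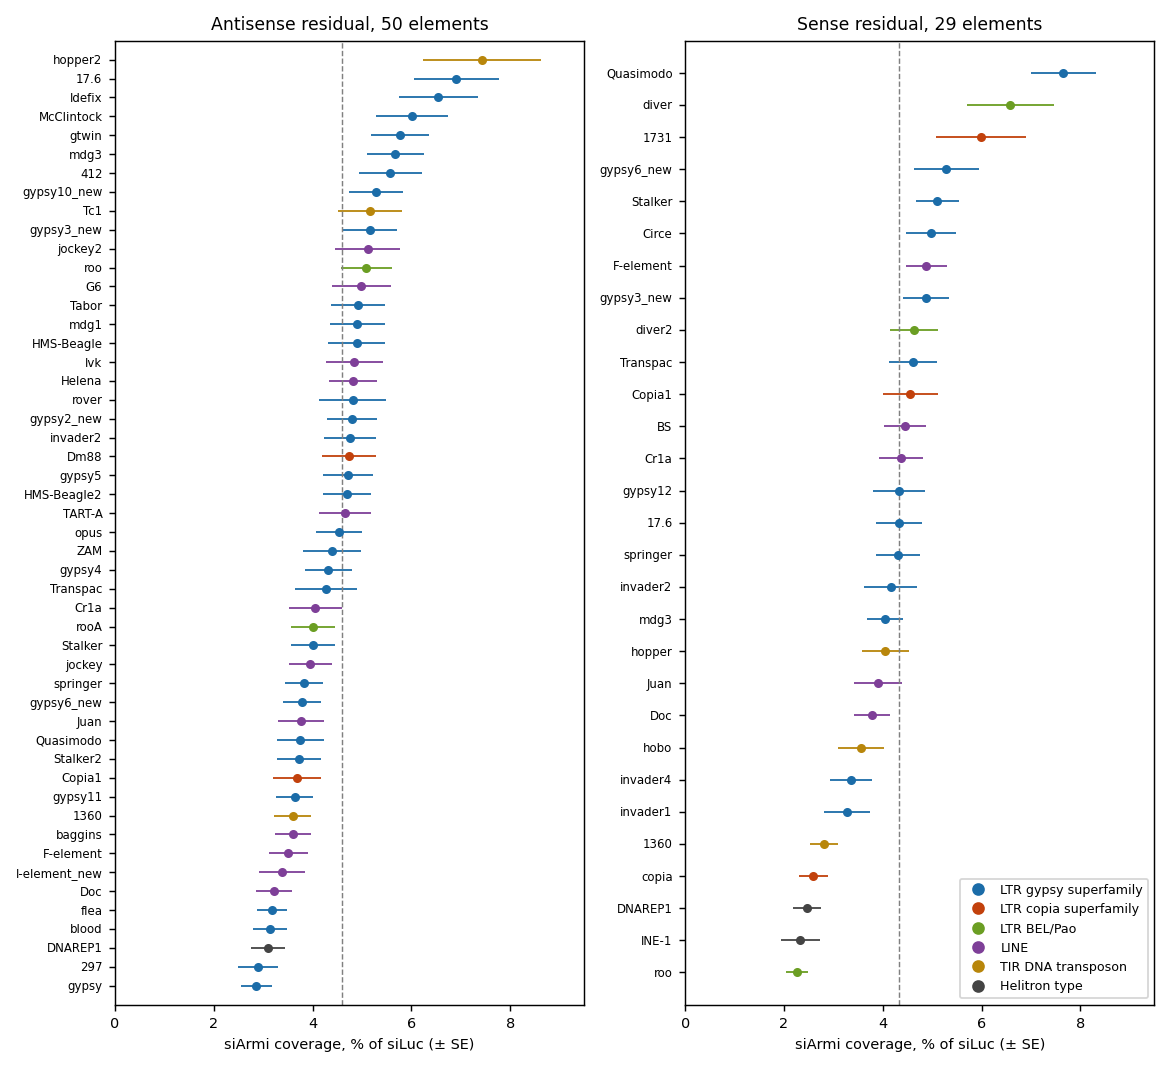
Residual coverage (siArmi mean as a percentage of the siLuc mean, with its SE) of the 50 elements tested on the antisense strand and the 29 tested on the sense strand, sorted by value and coloured by transposon class; the dashed line is the median. Antisense residuals ran from 2.86% (gypsy) to 7.44% (hopper2) and sense residuals from 2.27% (roo) to 7.65% (Quasimodo).

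Antisense residuals fell in a narrow band with a median of 4.59%, within which elements nevertheless differed. In a test of each element against the library median of all tested elements, 11 of 50 elements (22%) had kept less and 26 (52%) had kept more of their antisense coverage than that median. The split depends on the centre, since the median difference over the 50 elements was 0.17 on the log2 scale. With each library scaled to its antisense total the counts were 22 lower and 9 higher, and rover, gypsy2_new and gypsy5 changed sign.

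Elements with the smallest residue were gypsy, at -0.54 ± 0.04 (log2 difference from the library median, SE, adjusted p = 1.6e-05), '297' at -0.53 ± 0.06 (adjusted p = 8.1e-05) and blood at -0.41 ± 0.05 (adjusted p = 7.7e-05). '297' is an env-bearing retrovirus, and its coverage fell from 1096, 1051 and 741 to 32.3, 25.04 and 26.2. For blood, which lacks an env gene, the values were 1625, 1616 and 1180 in siLuc and 50.8, 44.1 and 44.0 in siArmi. Doc, a LINE of the jockey clade, was also on the low side at -0.36 ± 0.03, as were the LTR element flea at -0.38 ± 0.05 and the short Helitron-type repeat DNAREP1 at -0.39 ± 0.09. Each of these 6 elements kept between 2.86% and 3.22% of its antisense coverage.

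The largest antisense residue relative to the library median was that of hopper2, a DNA transposon, at 0.89 ± 0.13 (adjusted p = 0.00026). It was one of the least covered of the tested elements, with 22.6, 22.6 and 17.9 in siLuc and 2.01, 1.37 and 1.32 in siArmi. '17.6', an env-bearing retrovirus, followed at 0.73 ± 0.05 (adjusted p = 1.6e-05). Its coverage was 1836, 1812 and 1284 in siLuc and 127, 107 and 106 in siArmi, a residual of 6.91% ± 0.87. Idefix, which carries an env gene as well, stood at 0.65 ± 0.06 (adjusted p = 2.9e-05), with 2777, 2811 and 2018 in siLuc against 187, 158 and 152 in siArmi. gtwin (0.47), mdg3 (0.46), '412' (0.41), roo (0.29), HMS-Beagle (0.24) and mdg1 (0.23) had also kept more than the library median. With each library scaled to its antisense total, roo (0.07), HMS-Beagle (0.02) and mdg1 (0.01) no longer passed the threshold. Stalker (-0.06) and springer (-0.09) did not pass the threshold in either direction.

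The antisense residual did not follow the amount of piRNAs an element had. Spearman's rho with the siLuc antisense coverage was 0.12 over the 50 elements, given as a description because the elements share their libraries. The pair gypsy and Idefix shows this directly, with siLuc means of similar size and residuals of 2.86% and 6.54%. By class, median antisense residuals were 4.71% for the 30 tested members of the gypsy superfamily, 4.01% for 12 LINEs, 5.16% for 3 DNA transposons with terminal inverted repeats, 4.21% for 2 members of the copia superfamily and 4.55% for 2 BEL/Pao elements. The range within the gypsy superfamily, 2.86% to 6.91%, was wider than the distance between any of these medians. Of its 30 tested members, 6 were lower and 17 higher than the library median, while 4 of the 12 LINEs were lower and 5 higher.

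Tirant, an env-bearing retrovirus, did not reach the coverage minimum. Its antisense coverage was 12.1, 11.6 and 8.02 in siLuc and 0.579, 0.485 and 0.350 in siArmi, and the residual of 4.45% ± 0.83 lay close to the median of the tested elements.

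On the sense strand the residuals spread more widely. The elements with the most sense piRNAs in control cells were springer, an env-bearing retrovirus, and copia, the founding member of its superfamily. Sense coverage of springer was 2127, 2027 and 1531 in siLuc and 76.4, 82.5 and 86.0 in siArmi, a residual of 4.31% ± 0.45. That of copia was 1550, 1507 and 1113 in siLuc and 39.9, 34.7 and 33.5 in siArmi, a residual of 2.59% ± 0.30. DNAREP1 went from 1422, 1295 and 968 to 27.9, 31.7 and 31.2, a residual of 2.46% ± 0.29. Of these 3 elements springer kept the largest part of its sense coverage.

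Against the library median of the 29 tested elements, 6 elements (20.7%) had kept less and 11 (37.9%) more sense coverage. Without siLuc replicate 3 the second count was 7. The lowest were INE-1, a short Helitron-type repeat, at -0.77 ± 0.12 (adjusted p = 0.00061), the BEL/Pao element roo at -0.76 ± 0.05 (adjusted p = 3.9e-06) and DNAREP1 at -0.74 ± 0.09 (adjusted p = 0.00015), and copia stood at -0.67 ± 0.06. Sense coverage of roo was 58.7, 58.7 and 43.3 in siLuc and 1.28, 1.20 and 1.16 in siArmi. The highest were Quasimodo, an env-bearing retrovirus, at 0.96 ± 0.06 (adjusted p = 3.9e-06), the BEL/Pao element diver at 0.77 ± 0.07 (adjusted p = 4.2e-05) and the copia-superfamily element '1731' at 0.63 ± 0.09 (adjusted p = 0.00044). Quasimodo went from 26.9, 25.02 and 20.03 to 1.85, 1.81 and 1.84, a residual of 7.65% ± 0.65. On the median over positions in place of the mean, INE-1, diver and '1731' changed sign.

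Antisense and sense residuals of the same element were not tied to each other. Over the 17 elements tested on both strands, Spearman's rho was 0.078. roo had kept more than the library median on the antisense strand and less on the sense strand, with residuals of 5.09% and 2.27%. Quasimodo showed the opposite order, with 3.75% on the antisense and 7.65% on the sense strand.

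The strongest departures from the general loss were on the minor, sense strand of elements whose piRNAs are almost all antisense. These elements lie under the coverage minimum of the sense test and are described here from the strand balance. For gypsy, sense coverage was 9.53, 9.78 and 9.34 in siLuc and 5.41, 6.80 and 7.80 in siArmi, so that 69.8% ± 7.3 remained while 2.86% of the antisense coverage did. For mdg1 the sense values were 2.73, 2.54 and 2.37 in siLuc and 2.16, 2.25 and 2.55 in siArmi. Here the groups overlapped, and 91.1% ± 5.9 of the sense coverage remained against 4.91% of the antisense coverage. '297' kept 39.4% ± 3.0 of its sense coverage (8.27, 8.30 and 7.16 against 2.78, 3.16 and 3.41), and blood kept 27.7% ± 1.7 (8.01, 7.59 and 6.49 against 2.01, 2.07 and 2.04). The sense coverage of gypsy in siArmi rested on at least 676 reads in its shallowest library, that of '297' on at least 325, that of mdg1 on at least 270 and that of blood on at least 249.

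Among the 81 elements whose sense coverage in siLuc reached 1, the median sense residual was 4.88%. 71 of them kept less than 10%, 10 kept more and 4 kept more than 20%, and these 4 were mdg1, gypsy, '297' and blood. Of the other 6, Stalker2, chosen after its values were seen, had the largest residue and went from 17.7, 17.4 and 14.2 to 1.96, 2.46 and 2.07, a residual of 13.2% ± 1.3. Outside the 81, with a siLuc sense coverage under 1, '412' kept 35.15% and gypsy5 22.6% of it. Over the 81 elements Spearman's rho of the sense residual was 0.39 with the siLuc antisense share and -0.41 with the siLuc sense coverage. Low sense coverage and a high antisense share go together in these elements, and their parts in the residual were not tested separately.

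**Figure D2:**
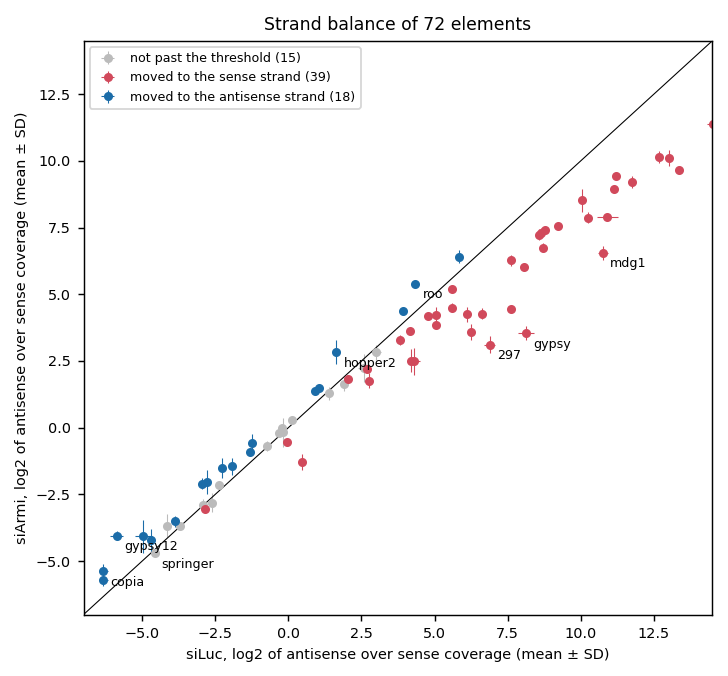
Strand balance of the 72 elements with a summed coverage of at least 10, as log2 of antisense over sense coverage (pseudocount 0.1; mean ± SD of 3 libraries per group), in siArmi against siLuc; the diagonal marks no change. gypsy, mdg1 and '297' lie farthest below the diagonal, at -4.58, -4.21 and -3.78, and roo and hopper2 lie above it.

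The miRNA scaling cancels in the ratio of the strands of a library, except for the pseudocount, which was added to scaled values. The strand balance therefore depends on that scaling only through the pseudocount. Of 72 elements, 39 (54.2%) moved toward the sense strand and 18 (25%) toward the antisense strand. The pseudocount of 0.1 enters these counts, because it weighs more on a small siArmi value than on the siLuc value of the same element, and with 0.01 the counts were 29 and 10. Read without any pseudocount, the antisense share of all 3 siArmi libraries lay under that of all siLuc libraries in 31 elements and above it in 12, and the groups overlapped in 29. The counts differed with the starting balance. Of 36 elements with a siLuc antisense share over 90%, 33 moved toward the sense and 3 toward the antisense strand, and the shares lay apart in 23 and 3 of them. Their median residual was 4.70% on the antisense and 8.21% on the sense strand. In Dm88 (93.5% to 94.4%), gypsy11 (98.99% to 99.05%) and jockey2 (99.76% to 99.81%) of this group the mean antisense share rose in siArmi. The groups overlapped in them, although the fitted value was lower. Of 27 elements between 10% and 90%, 6 moved toward the sense and 9 toward the antisense strand, and the shares lay apart in 7 that were lower and 8 that were higher. Of 9 elements under 10%, 0 and 6 did by the fitted value, but without a pseudocount the shares lay apart in only 1 that was lower (springer) and 1 that was higher (copia), and the groups overlapped in 7. In Circe, INE-1 and gypsy12 the mean antisense share was lower in siArmi although the fitted value was higher. The median residual of these 9 elements was 3.52% on the antisense and 4.31% on the sense strand.

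In gypsy the antisense share fell from 99.64% ± 0.07 (SD, n = 3) to 92.14% ± 1.27, a log2 change in strand balance of -4.58 ± 0.17 (SE, adjusted p = 1.1e-07). In '297' it fell from 99.17% ± 0.11 to 89.79% ± 1.98, a change of -3.78 ± 0.17. The shift of mdg1, -4.21 ± 0.17, took place within a narrow range of shares, from 99.94% ± 0.01 to 98.98% ± 0.18, as its antisense coverage was the third highest of all elements. Outside the gypsy superfamily, the LINE G2, chosen after its values were seen, had the largest loss of antisense share of any element tested, from 56.6%, 60.1% and 56.9% in siLuc to 19.9%, 27.6% and 29.2% in siArmi. Its antisense coverage was only 0.228, 0.267 and 0.422 in siArmi and rested on at least 11 reads in the shallowest library.

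Movement to the antisense strand was seen in roo, whose antisense share was 95.4%, 95.2% and 95.3% in siLuc and 97.8%, 97.8% and 97.95% in siArmi, a change of 1.06 ± 0.08 (adjusted p = 4.3e-06). For mdg3 the share rose from 67.3% ± 0.4 to 74.3% ± 1.3, a change of 0.45 ± 0.09, and for copia from 1.23% ± 0.13 to 2.11% ± 0.42, a change of 0.95 ± 0.15. In '17.6' the share went from 98.3% to 98.9%, a change of 0.57 ± 0.13. The share of hopper2 rose from 75.9% ± 1.3 to 92.0% ± 2.5, a change of 1.20 ± 0.21, but its sense coverage in siArmi, 0.109, 0.143 and 0.139, lay near the pseudocount and rested on as few as 2 reads. With a pseudocount of 1 the changes of hopper2 and '17.6' turned to -0.34 and -0.12. gypsy12 had the largest fitted change, 1.82 ± 0.16, and owed it to the pseudocount, since its antisense coverage in siArmi was 0.0224, 0.0321 and 0.0147 and its share went from 1.48% to 1.20% with overlapping groups. The fitted change of INE-1, 0.89 ± 0.30, likewise came with overlapping shares and with no antisense read in siArmi replicate 1.

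In percentage points, strand shares by transposon class changed most in the DNA transposons with terminal inverted repeats. Summed over the 22 consensus sequences of this class, the antisense share was 34.9%, 34.0% and 34.2% in siLuc and 41.6%, 41.8% and 41.8% in siArmi. Antisense coverage of the class kept 5.26% ± 0.55 and sense coverage 3.86% ± 0.39. The copia superfamily (5 elements), whose small RNAs are mostly sense, went from 5.05%, 5.25% and 5.19% to 7.44%, 7.67% and 8.11%, with residuals of 4.43% ± 0.46 antisense and 2.88% ± 0.33 sense. Taken as the ratio of antisense to sense residual, the change was larger in this superfamily than in the DNA transposons. BEL/Pao elements (7) rose from 92.9%, 92.8% and 92.8% to 94.2%, 94.3% and 94.4%. LINEs (35) went the other way, from 87.4%, 87.7% and 86.9% to 86.9%, 85.3% and 85.3%. In these 4 classes the groups did not overlap, and the exact permutation p was 0.1, the smallest possible, with 0.15 after adjustment over the 6 classes. The margin was narrow for LINEs, whose lowest siLuc and highest siArmi shares both round to 86.9%. Single members did not all follow the class sums. Among BEL/Pao elements the share rose in roo, but fell from 49.1% to 39.8% in 3S18 and from 13.7% to 7.77% in diver. Groups were separate in these, and overlapped in rooA and diver2. In the copia superfamily it rose in copia and fell from 12.1% to 10.0% in Copia1, with separate groups, and overlapped in '1731' and Dm88.

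The gypsy superfamily (49 elements), which held 91.4% of all antisense coverage in siLuc, kept its strand share, at 94.2% ± 0.1 in siLuc and 94.1% ± 0.6 in siArmi (exact permutation p = 0.9, overlapping groups). Losses of antisense share in gypsy, '297' and blood and gains in mdg3 and '17.6' thus stood side by side within this class. By the fitted value, 23 of its 35 members in the strand balance test moved toward the sense and 8 toward the antisense strand. The counts were 11 and 1 of 16 LINEs and 1 and 4 of 9 DNA transposons, and over all 72 elements 54.2% and 25%. Without a pseudocount the shares overlapped in gtwin, gypsy11, gypsy2_new and rover among the 23, and in Circe, gypsy12, invader3 and invader4 among the 8. They also overlapped in the called LINEs Helena, baggins and jockey2 and the called DNA transposons transib4 and hopper. In the Helitron-type repeats (3) the share was 5.76%, 6.21% and 6.53% in siLuc and 7.54%, 6.41% and 8.47% in siArmi, with overlapping groups (exact permutation p = 0.2). Over all elements the antisense share went from 91.49% ± 0.13 to 92.35% ± 0.59, with separate groups and an exact permutation p of 0.1.

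Because the classes lost unequal parts of their sense coverage, the make-up of the remaining sense small RNAs changed. The gypsy superfamily made up 60.3% ± 0.2 of all sense coverage in siLuc and 69.2% ± 1.8 in siArmi. The copia superfamily made up 23.8% ± 0.3 and 15.9% ± 1.8, and the Helitron-type repeats 2.26% ± 0.08 and 1.28% ± 0.06. On the antisense strand the make-up moved less, from 91.4% to 92.2% for the gypsy superfamily and from 5.32% ± 0.03 to 4.42% ± 0.19 for LINEs. In each of these comparisons the groups did not overlap (exact permutation p = 0.1, adjusted p = 0.12).

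**Figure D3:**
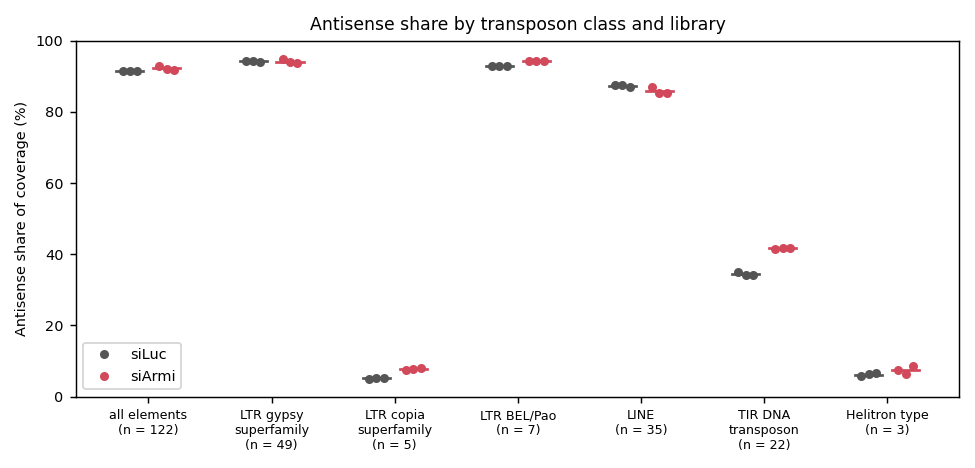
Antisense share of the summed coverage in each library for all elements and for 6 transposon classes; points are libraries and bars are group means, with the number of consensus sequences under each name. Points of the DNA transposons rise from about 34% in siLuc to about 42% in siArmi, those of the gypsy superfamily overlap.

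The shape of the profiles along the elements was largely kept. Pearson's r between the mean siLuc and siArmi profiles, in windows of 100 nt, had a median of 0.961 over the 50 antisense profiles and was at least 0.9 in 37 of them. Over the 29 sense profiles the median was 0.969, with 23 at 0.9 or more. These correlations describe the profiles and have no p, because neighbouring windows share reads. Replicates of siLuc had a median lowest r of 0.993 on the antisense and 0.996 on the sense strand, those of siArmi of 0.943 and 0.853. The siArmi libraries, with fewer reads over each element, thus repeated each other less closely.

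A median of 97.6% of the antisense positions covered in siLuc (over 10% of the mean of the element) were covered in siArmi by the same measure. On the sense strand the median was 89.6%. Signal was more concentrated after depletion. The top 5% of positions held a median of 13.2% of the antisense coverage in siLuc and 18.8% in siArmi, with separate groups in 39 elements that were higher and 2 that were lower in siArmi. Lower read numbers also concentrate coverage on fewer positions, and the part of depth in this difference was not tested.

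Several strongly covered elements kept their antisense profiles evenly, among them gtwin, rover and gypsy2_new. With each element divided into 10 equal parts, residuals of gtwin ran only from 5.40% to 6.26%, and the r between groups was 0.975. For rover and gypsy2_new r was 0.982 and 0.995, and for '412' it was 0.946. Over the 33 elements with all 10 parts covered by at least 10 in siLuc, the highest part residual was a median of 1.55 times the lowest, from 1.16 times in gtwin to 3.27 times in DNAREP1. No part with that coverage was spared in the tested antisense or sense profiles, and the siLuc and siArmi libraries did not overlap in any such part.

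**Figure D4:**
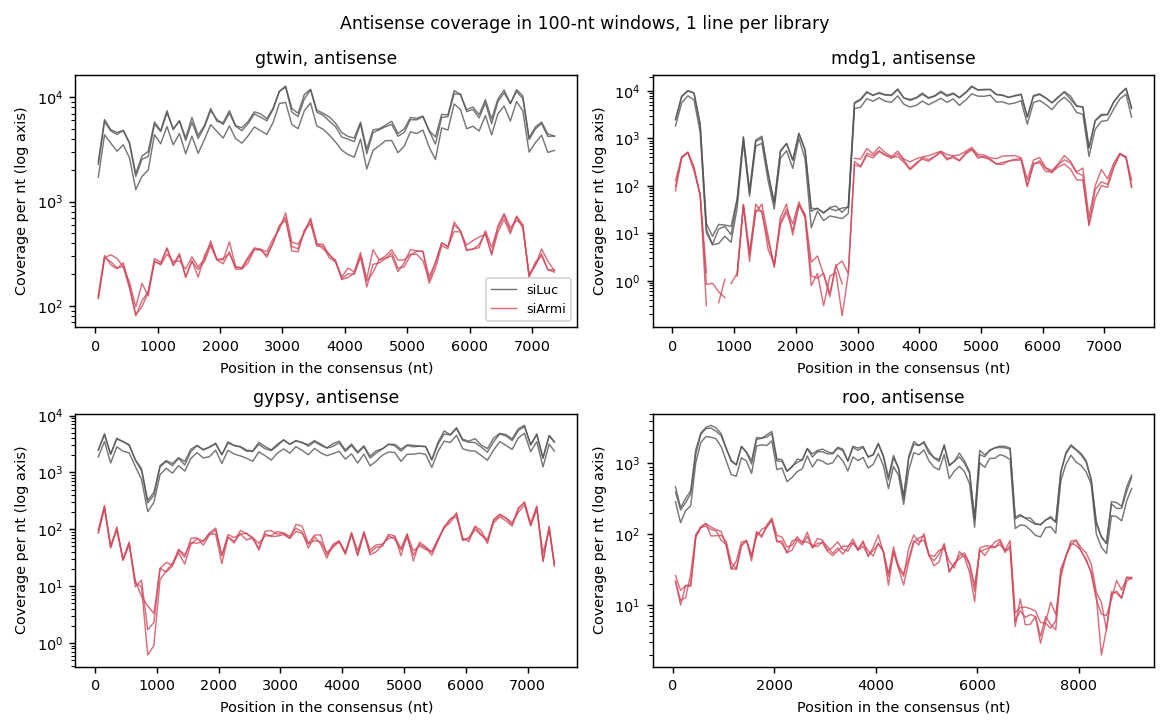
Antisense coverage along gtwin, mdg1, gypsy and roo in windows of 100 nt (log axis), 1 line per library. In gtwin the siArmi lines follow the siLuc lines at 5.40% to 6.26% of them when averaged over 10 equal parts, in gypsy they drop further between nt 401 and 1300, and in roo they come closer between nt 1801 and 2600.

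Of the antisense profiles whose r between groups was under the r of all replicate pairs, gypsy had the lowest. Its r between groups was 0.851, while the lowest r between replicates was 0.989 in siLuc and 0.978 in siArmi. The r between groups was also under the lowest r between replicates in '297', blood, '17.6', mdg1, roo and Stalker, and in Stalker2 and gypsy4, which were chosen after their values were seen. The r between groups is that of mean profiles and the r between replicates that of single libraries, so they are not measured alike. The number of such profiles, 9 of 50, was 24, 11 and 14 without siArmi replicate 1, 2 and 3. The lowest r of any antisense profile, 0.503, was that of hopper2, whose siArmi replicates had an r as low as 0.134, so that no loss of shape can be read from it.

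Tested window by window, as the share a window has of the coverage of its element, 282 of 2501 antisense windows (11.3%) were lower and 254 (10.2%) higher in siArmi. On the sense strand 112 of 913 windows (12.3%) were lower and 126 (13.8%) higher. With a pseudocount of 0.1 in place of 1 the counts were 223 and 168 on the antisense and 39 and 87 on the sense strand. They also varied with single libraries. Antisense counts fell to between 106 and 110 lower and between 91 and 104 higher without any one of the siLuc libraries and rose to 482 and 391 without siArmi replicate 1. Sense counts fell to between 49 and 51 lower and between 75 and 82 higher without a siLuc library, and rose to 171 and 176 without siArmi replicate 1.

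Among the 45 elements with at least 10 tested antisense windows, the share of changed windows was highest in gypsy, with 34 lower and 16 higher of 75 (66.7%), followed by mdg1 with 34 changed of 70 (48.6%) and rooA, a BEL/Pao element, with 23 of 54 (42.6%). With the smaller pseudocount gypsy and mdg1 still had 62.7% and 38.6%, whereas rooA had 5.56%. The median over the 45 elements was 15.9%, and 5 of them had no changed window.

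Of the runs of changed antisense windows in gypsy, that between nt 401 and 1300 of the consensus fell furthest, from 1610, 1568 and 1133 to 19.6, 18.1 and 20.01, a residual of 1.34%. Between nt 3701 and 4100 the residual was 1.77% and between nt 5101 and 5400 it was 1.73%. The last, shorter window of gypsy, nt 7401 to 7469, which belongs to no run, fell from 3473, 3417 and 2377 to 24.9, 23.8 and 22.4, a residual of 0.767%. This is a single window and not the mean of a run. The lowest log2 change in share of any gypsy window, -1.887, was reached within the run from nt 401 to 1300. Runs that kept more lay at the start of the element and between nt 6401 and 7200, short of its end. Between nt 1 and 200 coverage was 3654, 3535 and 2697 in siLuc and 157, 170 and 180 in siArmi, a residual of 5.13%. Between nt 6401 and 7200 it was 4741, 4484 and 3284 in siLuc and 178, 181 and 189 in siArmi, a residual of 4.38%. The residual of 4.38% was close to the median of all elements and that of 5.13% was above it. The lower ones were under the residual that any of the 50 tested elements had as a whole. Reads that align to both ends of an LTR element were split between them. Stretches near the ends of gypsy are therefore not all separate measurements.

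Other elements departed in shorter stretches. In roo the 8 windows between nt 1801 and 2600 kept more than the rest, with 1449, 1372 and 1043 in siLuc and 92.5, 89.0 and 99.6 in siArmi, a residual of 7.28% against 5.09% for the whole element. In mdg1 the stretch from nt 3101 to 3500 kept 6.20% and that from nt 5801 to 6400 kept 4.06%. For '412' the only run of 3 or more changed windows lay between nt 6201 and 6800, with a residual of 4.33% against 5.57% for the whole. In '17.6' the interior kept more than the ends, with 9.78% between nt 1001 and 1300 against 4.03% between nt 201 and 500 and 4.16% between nt 7101 and 7439. The ends of an LTR element repeat the same sequence, and reads that align to both were split between them by the authors, so that both ends are a single measurement.

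Positions that are poor in antisense piRNAs in control cells, called gaps here and defined as positions under 10% of the siLuc mean of the element, fell along with the rest. Over the 35 elements with at least 100 such positions, the median residual was 4.57% in gaps and 4.53% outside. mdg1, in which gaps covered 2063 nt, had 48.6 in siLuc and 2.22 in siArmi within them, a residual of 4.57% against 4.91% elsewhere. Single elements departed both ways, with a higher residual in gaps in 21 elements and a lower one in 14. In roo it was 9.01% against 5.07% elsewhere and in gypsy 0.798% against 2.86%. The highest was that of springer, with 3.69 in siLuc and 0.960 in siArmi, a residual of 26.0% against 3.49% elsewhere. On the sense strand the median over 22 elements was 5.93% in gaps and 4.36% outside. Gaps were chosen as low positions in siLuc, which favours a higher residual in them.

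Among the 24 elements with at least 10 tested sense windows, springer had the largest share of changed windows. Of its 75 windows, 9 were lower and 54 higher in their share of the element (84.0%, and 80.0% with a pseudocount of 0.1). The main peak between nt 601 and 1100 went from 15710, 15330 and 11210 to 400, 434 and 446, a residual of 3.03%. The weakly covered interior between nt 3701 and 5600 went from 302, 276 and 214 to 23.1, 24.2 and 27.5, a residual of 9.45%. The top 5% of positions held 43.9% ± 0.8 of its sense coverage in siLuc and 32.6% ± 0.6 in siArmi. Despite these shifts r between groups was 0.969, and 76.9% of the top positions were shared.

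copia had 23 changed sense windows of 51 (45.1%), with the same count under the smaller pseudocount. Of the 10 equal parts of the element, the last, nt 4630 to 5143, which had the most coverage, kept 1.81% and that from nt 2573 to 3086 kept 3.80%. In '17.6', 10 of 15 sense windows had changed (66.7%), and its ends kept 2.73% (nt 101 to 600) and 2.63% (nt 7001 to 7439) of their sense coverage, less than the 4.33% of the whole element. '1731' had 6 of 13 changed (46.2%). For '17.6' and '1731' the smaller pseudocount lowered these shares to 26.7% and 7.69%.

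**Figure D5:**
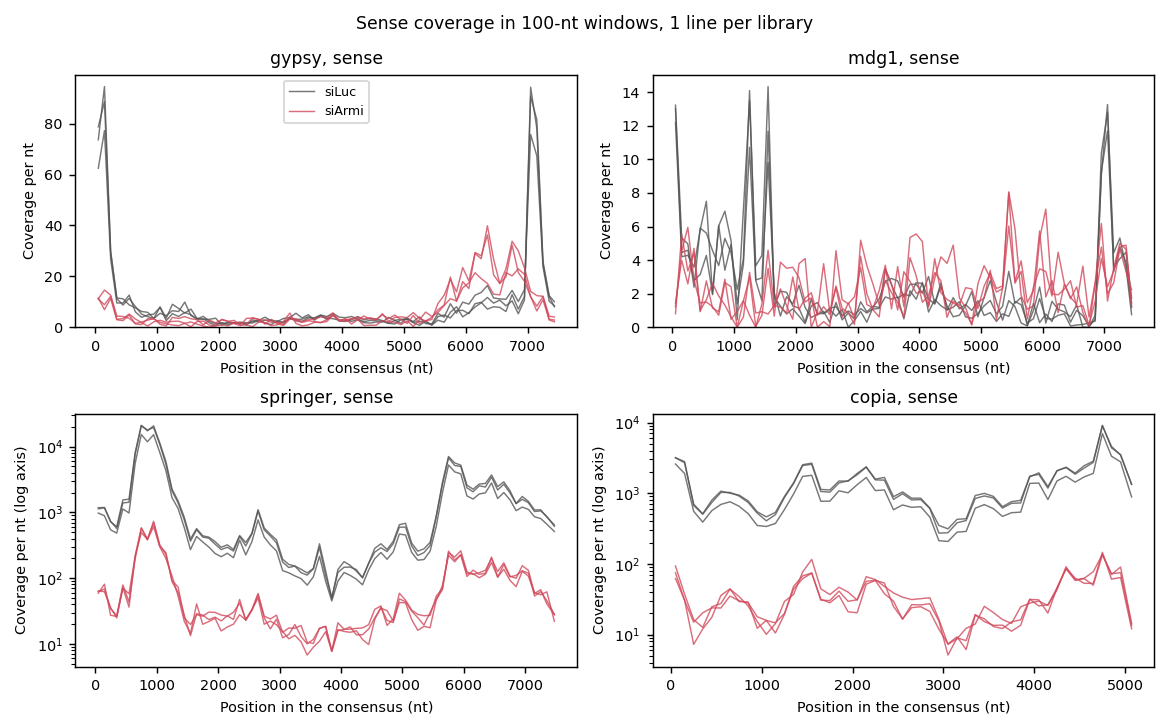
Sense coverage along gypsy and mdg1 (linear axes) and springer and copia (log axes) in windows of 100 nt, 1 line per library. In gypsy the siLuc lines peak at the ends and the siArmi lines rise above them between nt 5501 and 7000; in springer the siArmi lines come closest to siLuc in the interior.

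The profiles of the sense small RNAs that remained on gypsy, mdg1 and '297' differed from those of control cells. This comparison was added after the values had been seen. For gypsy, r between the mean sense profiles of siLuc and siArmi was 0.267, although replicates had an r of at least 0.989 in siLuc and 0.917 in siArmi, and 0 of the 373 positions in the top 5% were shared between the groups. For mdg1 r was 0.123, with replicates at 0.925 and 0.487 or more, and for '297' it was 0.450, with replicates at 0.994 and 0.647 or more. mdg1 shared 45 of 374 top positions and '297' 128 of 350. Between 93.2% and 94.5% of the sense positions covered in siLuc were still covered in siArmi in these 3 elements. Sense coverage of blood, in contrast, kept an r of 0.826 and fell in all 10 parts, to residuals between 16.0% and 38.4%.

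At the ends of gypsy the sense strand lost coverage, from a mean of 30.6 to 6.32 between nt 1 and 747 (20.7%). It gained in one stretch of the interior, while 21 of its 43 tested windows were lower in siArmi. Between nt 5501 and 7000, sense coverage was 7.51, 7.43 and 10.6 in siLuc and 15.8, 20.1 and 23.1 in siArmi, so that all siArmi libraries were higher, by 2.31-fold in the mean. These were 15 consecutive windows, each past the threshold with a largest adjusted p of 0.038 (limma). Antisense coverage over the part of the element at nt 5977 to 6723, fell from a mean of 3250 to 111 at the same time, and the sense coverage there rose from 9.62 to 22.4.

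Over the whole table, 1823 sense windows had a mean coverage of at least 3, of which 1765 (96.8%) were lower and 19 (1.04%) higher in siArmi. All 19 lay in 3 elements: 15 of 43 tested windows of gypsy, 3 of 20 of mdg1 and 1 of 36 of '297'. The minimum of 3 was set on the mean over both groups. The 3 windows of mdg1, with siLuc means of 2.20, 1.85 and 1.46, reached it only through their siArmi values. Their selection was therefore not independent of the rise, and the counts of lower and higher windows share this limit. In mdg1 the window from nt 5401 to 5500 went from 1.59, 0.647 and 3.33 to 8.01, 8.07 and 6.03, a 3.97-fold rise, and that from nt 5901 to 6000 rose 3.31-fold. In '297' the window from nt 5701 to 5800 went from 2.97, 5.50 and 4.95 to 7.54, 7.95 and 8.94, a 1.82-fold rise (adjusted p = 0.016). Between 14 and 23 windows were higher when single libraries were left out. The lengths of the reads behind these values were not analysed here, and whether the remaining sense reads are piRNAs or fragments of transposon transcripts was not tested.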

How the data were processed

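Small RNAs bound to Argonaute proteins were purified by the authors on TraPR resin from OSC lysates adjusted to equal protein, and sequenced. The authors trimmed reads with cutadapt, removed rRNA and mitochondrial reads, aligned reads of 24 to 35 nt to RepBase-based transposon consensus sequences with Bowtie and kept those that align to a single consensus, with a weight of 0.5 where they align to it at 2 places. Elements that share sequence therefore lose coverage. The deposited values are a coverage signal per position and strand, per 1000000 miRNA reads; the authors stored antisense coverage as negative values, another scale whose size was used here. 0 columns belonged to samples of other series.

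Coverage was averaged per element, per each of 10 equal parts of an element and per window of 100 nt. limma 3.58.1 (R 4.3.3, trended prior) was applied to log2 values of the 6 libraries, with a pseudocount of 1 for changes and windows and of 0.1 for residuals and strand balance, a minimum mean coverage of 10 (3 for sense window levels) and Benjamini-Hochberg adjustment at 0.05. Count models were not applied to these coverage values. Prior degrees of freedom were infinite for the changes of elements and for window levels, whose p-values therefore rest on the spread shared by all elements. Single values per library were compared with exact two-sided permutation tests. Each fit was tested on simulated data with known changes. Python 3.11.15, numpy 2.4.6, pandas 2.3.3, scipy 1.17.1 and matplotlib 3.10.9 were used.

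Elements were named by rule: the 10 with the most antisense and the 5 with the most sense coverage in siLuc, the 3 largest differences in each direction with separate groups in each comparison of elements, the 3 elements with the largest share of changed windows per strand, and those that the study discusses. The members, the classes and this rule were chosen with earlier results of these data known. Gypsy-superfamily elements with and without an env gene, planned as 2 classes, were joined, because the gene content of some consensus sequences was not certain. 1 of 122 elements was left unclassified. Depth was read from the smallest step between values, and least read numbers assume the longest reads, 35 nt.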

Additional observations from a re-analysis of the deposited data

How the results depend on the processing

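The loss on both strands held for every tested element under the pseudocounts of 0.1 and 10, with all 10 libraries in 1 fit and with each library left out (50 antisense and 29 sense elements lower). Without a coverage minimum 120 antisense and 119 sense elements were lower. Scaling to total transposon signal takes out the common loss by construction and gave 23 lower and 9 higher antisense and 13 lower and 3 higher sense elements; median-ratio scaling gave 20 and 14, and 9 and 8. The fitted log2 changes that then turned positive were, for antisense coverage under total and median-ratio scaling, 0.52 and 0.61 for '17.6', 0.20 and 0.30 for '412', 0.03 and 0.12 for HMS-Beagle, 0.44 and 0.53 for Idefix, 0.26 and 0.36 for gtwin, 0.55 and 0.59 for hopper2, 0.02 and 0.12 for mdg1, 0.23 and 0.32 for mdg3 and 0.08 and 0.17 for roo, and under median-ratio scaling alone 0.09 for gypsy2_new, 0.06 for gypsy5 and 0.09 for rover. For sense coverage they were 0.28 and 0.38 for '1731', 0.62 and 0.70 for Quasimodo, 0.07 and 0.21 for Stalker and 0.42 and 0.51 for diver, and under median-ratio scaling alone 0.06 for Copia1 and 0.07 for Transpac.

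Residuals against the library median depend on which elements set that median. Scaled to the total of the strand, 22 antisense elements were lower and 9 higher, and gypsy2_new (-0.02), gypsy5 (-0.04) and rover (-0.02) changed sign. Under the same scaling HMS-Beagle (0.02), mdg1 (0.01) and roo (0.07) no longer passed the threshold. At a coverage of at least 100, antisense 6 were lower, and sense 2 were lower and 4 higher. With the median over positions 17 antisense and 5 sense elements were higher, and '1731' (-1.88), INE-1 (1.06) and diver (-1.20) changed sign on the sense strand. With a pseudocount of 1, 12 sense elements were lower and Transpac turned to -0.18. Without siLuc replicate 3, 7 sense elements were higher, and over all left-out libraries the count was 7 to 14. Without a coverage minimum 55 antisense elements were lower, and 44 sense elements lower and 63 higher. Relative to that lower median, antisense differences were -0.27 for '412', -0.44 for HMS-Beagle, -0.04 for Idefix, -0.22 for gtwin, -0.48 for gypsy2_new, -0.51 for gypsy5, -0.46 for mdg1, -0.23 for mdg3, -0.40 for roo and -0.48 for rover, and sense differences -0.40 for '1731', -0.07 for Quasimodo, -0.67 for Stalker, -0.87 for Transpac and -0.26 for diver.

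In the strand balance, 5 elements moved to the antisense strand at a coverage of at least 100, 10 with a pseudocount of 0.01, where INE-1 turned to -0.99, and 31 without a minimum, where 59 moved to the sense strand. With a pseudocount of 1, '17.6' (-0.12), Copia1 (0.44) and hopper2 (-0.34) changed sign, and with the median over positions Copia1 (0.70), Stalker (0.06), copia (-1.76), flea (1.77) and hopper2 (-0.86) did. Only the elements named by rule were followed singly when 1 library was left out. Of these, rover and Transpac lost their call among the residuals and Copia1, Doc, INE-1 and DNAREP1 in the strand balance. Over all tested elements, 8 to 13 antisense residuals were then lower and 23 to 27 higher. For sense residuals the counts were 5 to 8 and 7 to 14, and for strand balance 37 to 39 and 12 to 18.

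Changed windows numbered 106 to 482 lower and 91 to 391 higher on the antisense strand, and 49 to 171 and 75 to 176 on the sense strand, with single libraries left out. With a pseudocount of 0.1, 168 antisense windows were higher and 39 sense windows lower. At a window coverage of at least 100, 63 sense windows were lower and 64 higher, and 34 and 66 with both settings together, a combination chosen after seeing the data. Sense window levels gave 1061 lower and 12 higher windows at a coverage of at least 10, and 155 and 214 when scaled to total transposon signal. Median correlations of profiles were 0.948 antisense and 0.937 sense in windows of 20 nt and 0.895 and 0.864 as Spearman's. With single libraries left out the antisense median was 0.953 to 0.962 and the sense median 0.946 to 0.969, the median share of covered positions kept was 96.8% to 97.7% and 82.0% to 90.5%, and the median share of siArmi signal in the top positions was 18.6% to 19.1% and 29.6% to 30.7%. The causes of these differences were not tested.

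Deviations of same-numbered libraries correlated at -0.05, 0.23 and 0.25 on the antisense and at 0.19, -0.41 and 0.30 on the sense strand. Those of other pairs ran from -0.34 to 0.17 and from -0.44 to 0.34. These few values cannot decide whether same-numbered libraries were processed together. With the replicate block, 50 antisense and 29 sense elements were lower and 0 were higher, 12 and 26 antisense and 6 and 9 sense residuals were lower and higher, strand balance gave 37 and 19, antisense windows 272 and 236, sense windows 119 and 133 and sense window levels 1765 and 18. Low depth in siArmi limits the sense values of elements with few reads.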
